A study of Mus musculus with 10 samples.

Results

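The genes described here encode 6 proteins of the phagocyte NADPH oxidase, the enzyme of the respiratory burst: Cybb, Cyba, Ncf1, Ncf4, Rac2 and Hvcn1. They were chosen by name, with their midbrain and striatum levels in these libraries already known, to set Cybb beside the subunits it works with, and they are 6 of the 53715 gene identifiers counted. Since the contrast between the regions chose them, their values in that contrast are given as a description without a test.

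The study compared microglia from the midbrain (Mdb) and the striatum (Str) of untreated C57BL/6 mice aged 3 months, all male. Cells were released with papain, cleared of debris on a 25% Percoll column and purified with CD11b MicroBeads, and poly-A RNA was sequenced with a bulk version of MARS-seq, which reads the 3′ ends of transcripts. CD11b is carried by other myeloid cells too, so the beads do not separate microglia from monocytes, neutrophils or macrophages of the brain borders, and the flow cytometry used to check purity is not analysed here. Of 10 libraries, 4 came from a pilot cohort (Exp 1, 2 per region) and 6 from a second cohort (Exp 2); the title and the file name of 2 libraries of Exp 2 name different regions, so they were placed in neither, which left 2 per region. The groups were thus Mdb Exp 1, Str Exp 1, Mdb Exp 2 and Str Exp 2, which share strain, age and the absence of treatment. Exp 1 used 2 mice and Exp 2 used 3, so midbrain and striatum libraries share animals, but the sources used here do not say which. Every n is therefore a number of libraries, and errors measure the spread between libraries, not between mice.

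The oxidase carries electrons from NADPH across a membrane to oxygen and so makes superoxide, which phagocytes use against microbes and which microglia release when strongly activated. Its catalytic core is a flavocytochrome of Cybb (gp91phox, also called NOX2) and Cyba (p22phox), each of which stabilises the other in the membrane. At rest the core is inactive. On stimulation Ncf1 (p47phox) and Ncf4 (p40phox) move from the cytosol to the core together with the GTPase Rac2 or Rac1, while the proton channel Hvcn1 lets out the charge that the electrons leave behind. Neutrophils and monocytes are rich in this enzyme.

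Cybb lies on the X chromosome, the other 5 genes on autosomes. Each was counted over its exons without regard to strand. In GRCm38 coordinates, Cybb spans chrX:9435252-9487771 on the minus strand. Ncf1 shares exon bases with Gtf2ird2 and Hvcn1 with Tctn1, genes of the opposite strand, so reads from the shared bases cannot be given to either gene and the levels of Ncf1 and Hvcn1 are uncertain to that extent. RefSeq promoter sequences, 250 bases before to 50 bases after the start of a gene in GRCm38.p6, were found for 3 of the 6 genes: Cybb (chrX:9469275-9469574), Cyba (chr8:122432891-122433190) and Ncf1 (chr5:134229576-134229875), all on the minus strand. The Cybb start of this table lies inside the annotated span of the gene. They are shown so that the promoter of the catalytic subunit can be read beside those of its membrane partner and of a cytosolic subunit, whose levels are set against it here. Capitals mark matches, on either strand, to letters that stand for sites of known regulators of Cybb: GAGGAA for the core of PU.1 sites, GAAA, any 2 bases and GAAA again for IRF response elements, and CCAAT.
Cybb: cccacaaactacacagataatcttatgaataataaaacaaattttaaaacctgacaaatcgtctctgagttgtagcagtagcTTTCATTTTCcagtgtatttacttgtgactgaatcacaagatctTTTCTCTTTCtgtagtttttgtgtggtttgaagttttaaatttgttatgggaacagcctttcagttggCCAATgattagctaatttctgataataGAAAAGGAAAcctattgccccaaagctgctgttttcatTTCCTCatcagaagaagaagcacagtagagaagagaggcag
Cyba: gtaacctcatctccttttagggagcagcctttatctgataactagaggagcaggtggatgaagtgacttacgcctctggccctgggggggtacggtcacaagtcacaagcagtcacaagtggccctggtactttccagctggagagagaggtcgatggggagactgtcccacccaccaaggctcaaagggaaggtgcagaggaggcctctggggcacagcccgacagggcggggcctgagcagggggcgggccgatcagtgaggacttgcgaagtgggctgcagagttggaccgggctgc
Ncf1: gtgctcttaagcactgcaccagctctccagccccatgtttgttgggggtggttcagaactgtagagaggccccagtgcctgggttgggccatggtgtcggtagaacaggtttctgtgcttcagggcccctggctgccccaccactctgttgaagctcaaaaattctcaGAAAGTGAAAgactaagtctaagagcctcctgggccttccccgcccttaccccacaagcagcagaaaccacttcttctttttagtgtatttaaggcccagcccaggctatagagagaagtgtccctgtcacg

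The Cybb promoter held 3 matches to the IRF letters, at bases 83 to 92, 127 to 136 and 222 to 231 of the 300. It also held a CCAAT at bases 195 to 199 and a GAGGAA on the reverse strand at bases 260 to 265, just after the start. None of the 5 matches overlapped another. Ncf1 held 1 match to the IRF letters, at bases 169 to 178, and Cyba none to any of the 3 motifs. Among 32851 mouse promoters of the same length, 3.44% held the IRF letters, 28.3% GAGGAA and 37.4% CCAAT. The Cybb promoter was 35.3% G and C, against 60.7% for Cyba, 54% for Ncf1 and a median of 52.7% over all promoters. These matches describe the letters only, and no binding was measured.

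Levels are given as CPM after TMM scaling, which takes counts relative to the library total and adjusts each library total for the genes that dominate it. The 8 libraries held 575709 to 8463782 counts, and the level that 3 counts correspond to ranged from 0.35 to 5.14 CPM. All 6 genes lay far above it, the lowest count being 28 reads of Cybb in the shallowest library, Str Exp 2 replicate 3. Per kilobase of exon, the mean level was 742 CPM for Cyba, 140 for Ncf1, 97.6 for Hvcn1, 76.4 for Ncf4, 74.4 for Rac2 and 31.7 for Cybb. Cyba was thus the most abundant of the subunits and Cybb the least on this scale, with the limit that a protocol reading 3′ ends understates long transcripts per kilobase. The 5808 exonic bases of Cybb were the most among the 6 genes. Without division by length the lowest mean over the 8 libraries was that of Ncf4 (154 CPM, against 184 for Cybb). For that mean, the place of Cybb at the bottom thus rests on the division. In each striatum library Cybb was the lowest of the 6 genes without it, at log2 differences of -1.22 to -1.56 from Ncf4. In each midbrain library Ncf4 was lower than Cybb.

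Cybb was higher in the midbrain libraries than in the striatum libraries of both experiments. In Exp 1 its level was 177 and 147 CPM in the midbrain and 51.4 and 40.5 CPM in the striatum. In Exp 2 it was 699 and 239 CPM in the midbrain and 70.7 and 48.0 CPM in the striatum. All 4 midbrain libraries lay above all 4 striatum libraries, and Mdb Exp 2 replicate 1 stood apart at 2.93 times the level of the other library of its group. The log2 fold change, midbrain over striatum, was 1.79 ± 0.20 (SE, n = 2 per region) in Exp 1 and 2.68 ± 0.50 in Exp 2, that is 3.46-fold and 6.40-fold. Fitted over both experiments it was 2.19 ± 0.33 (n = 4 per region). Without Mdb Exp 2 replicate 1 the joint value was 1.83 and the value of Exp 2 was 1.93. Across all 8 libraries the highest level of Cybb was 17.3 times the lowest.

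Cyba, the membrane partner of Cybb, did not follow it. Its level was 771 and 851 CPM in the midbrain and 749 and 874 CPM in the striatum of Exp 1. In Exp 2 it was 852 and 649.9 CPM in the midbrain and 861 and 560.4 CPM in the striatum. The regions overlapped in both experiments, and the highest of the 8 libraries was 1.56 times the lowest. The log2 fold changes were -0.04 ± 0.19 in Exp 1, 0.05 ± 0.27 in Exp 2 and 0.03 ± 0.15 jointly, changing sign between the experiments.

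Ncf1, the organiser subunit that carries the cytosolic complex to the membrane, had 582 and 586 CPM in the midbrain and 566 and 744 CPM in the striatum of Exp 1. It had 443 and 424 CPM in the midbrain and 359.7 and 396 CPM in the striatum of Exp 2. The regions overlapped in Exp 1 and not in Exp 2, and the log2 fold changes of -0.19 ± 0.20 and 0.20 ± 0.24 had opposite signs. Ncf4, which binds phosphoinositides of the phagosome, had 141 and 137 CPM in the midbrain and 121 and 117 CPM in the striatum of Exp 1. Its levels in Exp 2 were 225 and 179 CPM in the midbrain and 172 and 142 CPM in the striatum. Midbrain libraries lay above striatum libraries in each experiment, by a log2 fold change of 0.18 ± 0.17 in Exp 1 and 0.31 ± 0.27 in Exp 2, hardly more than the standard error.

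Rac2, the GTPase of blood cells that switches the enzyme on, had 194 and 188 CPM in the midbrain and 172 and 146 CPM in the striatum of Exp 1. In Exp 2 the midbrain had 367 and 315 CPM and the striatum 298 and 166 CPM. The midbrain lay above the striatum in each experiment, with log2 fold changes of 0.23 ± 0.17 and 0.52 ± 0.29. Hvcn1 had the opposite order. Its level was 304 and 334 CPM in the midbrain and 373 and 437 CPM in the striatum of Exp 1. In Exp 2 it was 257 and 284 CPM in the midbrain and 353 and 439 CPM in the striatum. The log2 fold changes of Hvcn1 were -0.38 ± 0.18 and -0.53 ± 0.25.

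**Figure D1:**
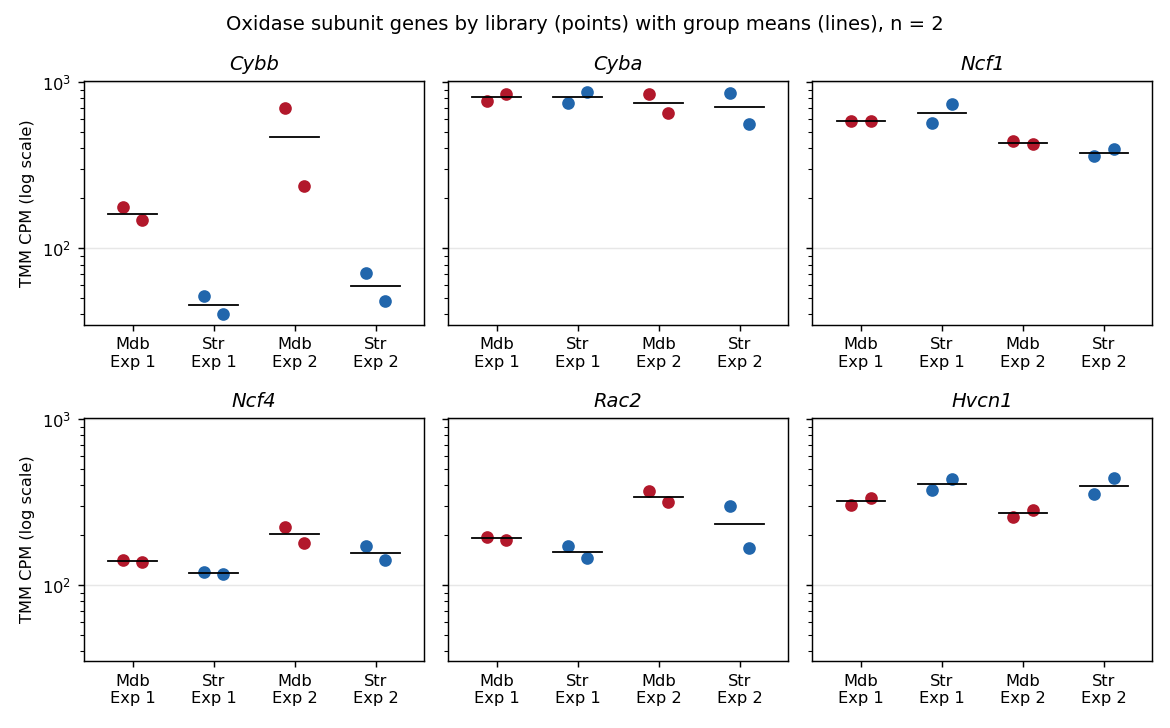
Level of the 6 oxidase genes in CPM on a log scale. Points are libraries, lines the means of 2 libraries, red the midbrain and blue the striatum; Cybb ranges from 40.5 to 699 CPM while the highest and lowest libraries of the other genes differ by at most 2.52 times.

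Within an experiment, the threshold was an unadjusted p under 0.01 with voom and limma. Of all genes tested, 2.09% were past it and higher in the midbrain in Exp 1 and 2.88% in Exp 2. In the joint fit, 0.975% of all genes were higher in the midbrain at an adjusted p under 0.05. No such call is given for the 6 genes, since this contrast chose them. Midbrain libraries lay wholly above striatum libraries in both experiments for 3 of the 6 genes, Cybb, Ncf4 and Rac2, and for 9.01% of all genes (23.1% in Exp 1 and 23.4% in Exp 2 taken alone). They lay wholly below for 1 of the 6, Hvcn1, and for 6.06% of all genes (19.9% and 17.2%). These counts rest on the contrast that chose the genes, so nothing is read from them. The median log2 fold change of the 6 genes in the joint fit was 0.15, beside 0.04 over all genes.

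The distance between Cybb and its partners was taken in each library as log2 CPM of Cybb minus the mean log2 CPM of the other 5 genes. It averaged -1.04 in the midbrain and -2.85 in the striatum of Exp 1, a difference of 1.81 (pooled SD 0.27, n = 2 per region). In Exp 2 it averaged 0.19 and -2.47, a difference of 2.66 (pooled SD 0.70). The mean of the partners themselves differed between the regions by 0.00 and 0.15 on the log2 scale, so nearly all of the distance came from Cybb. Against single partners the difference ran from 1.54 (Rac2) to 2.15 (Hvcn1) in Exp 1 and from 2.19 (Rac2) to 3.34 (Hvcn1) in Exp 2. As a share of the summed CPM of the 6 genes, Cybb made up 8.14% and 6.57% in the midbrain and 2.53% and 1.72% in the striatum of Exp 1. It made up 24.6% and 11.4% in the midbrain and 3.34% and 2.74% in the striatum of Exp 2. The sum of the 6 genes was 1752 to 2844 CPM over the 8 libraries.

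Of 3 further genes of the enzyme described here, Rac1, Cybc1 and Rap1a, none passed the threshold between the regions in the joint fit (adjusted p from voom and limma over 14053 genes). Rac1, the widely expressed relative of Rac2, had a log2 fold change of 0.06 ± 0.17 (adjusted p = 0.907). Cybc1, a chaperone needed for the Cybb and Cyba proteins to mature, had -0.25 ± 0.19 (adjusted p = 0.575), and Rap1a, a small GTPase that copurifies with the flavocytochrome, -0.15 ± 0.18 (adjusted p = 0.754). Rac1 shares exon bases with Daglb and Cybc1 with Hexdc, so both values carry the same limit as those of Ncf1 and Hvcn1.

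**Figure D2:**
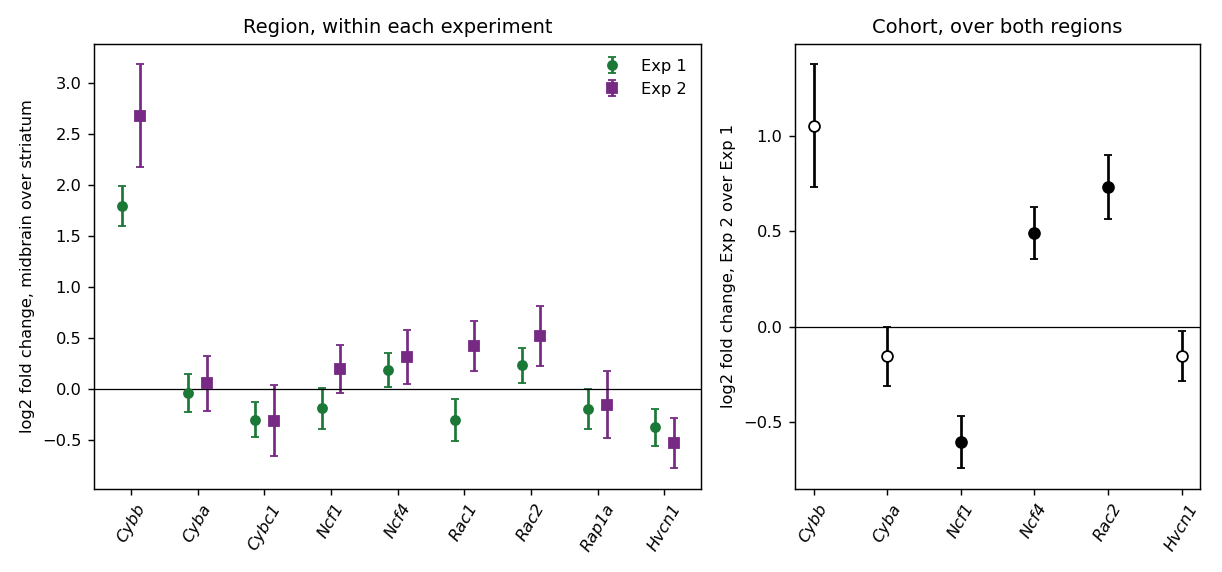
Left, log2 fold change of midbrain over striatum with its standard error, within Exp 1 (circles) and Exp 2 (squares), for the 6 genes and for Rac1, Cybc1 and Rap1a. Right, log2 fold change of Exp 2 over Exp 1 over both regions with its standard error; filled circles (Ncf1, Ncf4, Rac2) have an adjusted p under 0.05. Cybb stands at 1.79 and 2.68 on the left, and the other genes there run from -0.53 (Hvcn1) to 0.52 (Rac2).

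Between the regions, the summed markers of other myeloid cells changed in the same direction as Cybb. All 9 monocyte markers were higher in the midbrain in each experiment, and their summed level was 290.1 to 362 CPM in the midbrain and 125 to 138 CPM in the striatum of Exp 1. In Exp 2 it was 720.0 to 3053 CPM in the midbrain and 132 to 269 CPM in the striatum. Of 12 neutrophil markers, 11 were higher in the midbrain in Exp 1 and 12 in Exp 2. Their sums were 1136 to 1492 against 852 to 888 CPM in Exp 1. In Exp 2 they were 4031 to 6625 against 934 to 1011 CPM. The exception in Exp 1 was Csf3r, with a log2 fold change of -0.60 ± 0.20 there and 0.06 ± 0.24 in Exp 2. The other neutrophil markers tested in Exp 1 ran from 0.91 (Ltf) to 3.38 (Retnlg). All neutrophil sums given here include Csf3r, and its share of them was not separated. All 9 markers of border macrophages were higher in each experiment, with sums of 1888 to 2255 against 961 to 1317 CPM and of 2529 to 3014 against 610.1 to 705 CPM. None of these markers was at 0 in all 8 libraries, and the defining neutrophil gene Ly6g ranged from 0.467 to 12.95 CPM. Of 10 microglia markers 1 was higher in the midbrain in Exp 1 and 0 in Exp 2, and their sums were 0.730 and 0.676 times those of the striatum. The part of these cells in the level of Cybb was not tested, and in bulk samples fewer cells of a type and less RNA per cell cannot be told apart.

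The other marker lists were read in the same way. Of 9 T and NK cell markers 8 were higher in the midbrain in each experiment (Cd3e at no more than 3 counts in any library), with sums 2.75 and 6.47 times those of the striatum. For 5 dendritic cell markers, of which 5 and 4 were higher, the ratios were 2.02 and 5.95. The ratios were 0.876 and 0.845 for B cells (Ms4a1 at no more than 3 counts), 1.40 and 0.782 for neurons (Th, Slc6a3 and Drd1 at no more than 3 counts), 1.33 and 0.456 for astrocytes, 1.27 and 0.795 for oligodendrocytes and 0.864 and 1.39 for endothelium. Genes induced by tissue dissociation had ratios of 1.08 and 2.12.

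Inside groups, where the region is the same, Cybb and these lists could also be set side by side. In Mdb Exp 2, Cybb was 2.93 times higher in replicate 1 than in replicate 3. The monocyte sum was 4.24 times higher there, the neutrophil sum 1.64 times and the border macrophage sum 0.839 times. The T and NK cell sum was 1.99 times and the endothelial sum 2.22 times higher there. The neuron sum was 1.75 times and the B cell sum 1.03 times. Sums with a ratio below 1 were also those of astrocytes (0.914), microglia (0.888), oligodendrocytes (0.844) and dendritic cells (0.652). Of the partners in the same pair of libraries, Cyba was 1.31 times, Ncf4 1.26 times, Rac2 1.16 times, Ncf1 1.05 times and Hvcn1 0.905 times. In Str Exp 2, replicate 3 is the shallowest library. The ratios of replicate 1 to replicate 3 were 1.47 for Cybb, 2.04 for the monocyte sum and 0.924 for the neutrophil sum. Of the partners there, Rac2 (1.79) and Cyba (1.54) had ratios above that of Cybb, and Ncf4 (1.21), Ncf1 (0.909) and Hvcn1 (0.805) below. The sums of T and NK cells (4.83), astrocytes (3.25) and oligodendrocytes (2.01) were above it too. Those of border macrophages (1.16), neurons (1.14), B cells (1.02), dendritic cells (0.907), endothelium (0.833) and microglia (0.799) were below it. In Exp 1 the ratio of the 2 replicates was 1.20 for Cybb in the midbrain and 1.27 in the striatum. For the monocyte sum it was 1.25 and 1.10. In Mdb Exp 1 the sums of neutrophils (1.31), neurons (1.22) and T and NK cells (1.20) had ratios above 1 too. So did those of border macrophages (1.19), dendritic cells (1.19) and B cells (1.02). Those of oligodendrocytes (0.920), endothelium (0.899), microglia (0.882) and astrocytes (0.622) were below 1. In Str Exp 1 the neutrophil sum (0.959), the border macrophage sum (0.730) and the T and NK cell sum (0.501) had ratios below 1. So did the sums of microglia (0.936), B cells (0.796) and dendritic cells (0.763). The sums of astrocytes (3.16), oligodendrocytes (1.73), neurons (1.63) and endothelium (1.10) had ratios above 1 there.

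**Figure D3:**
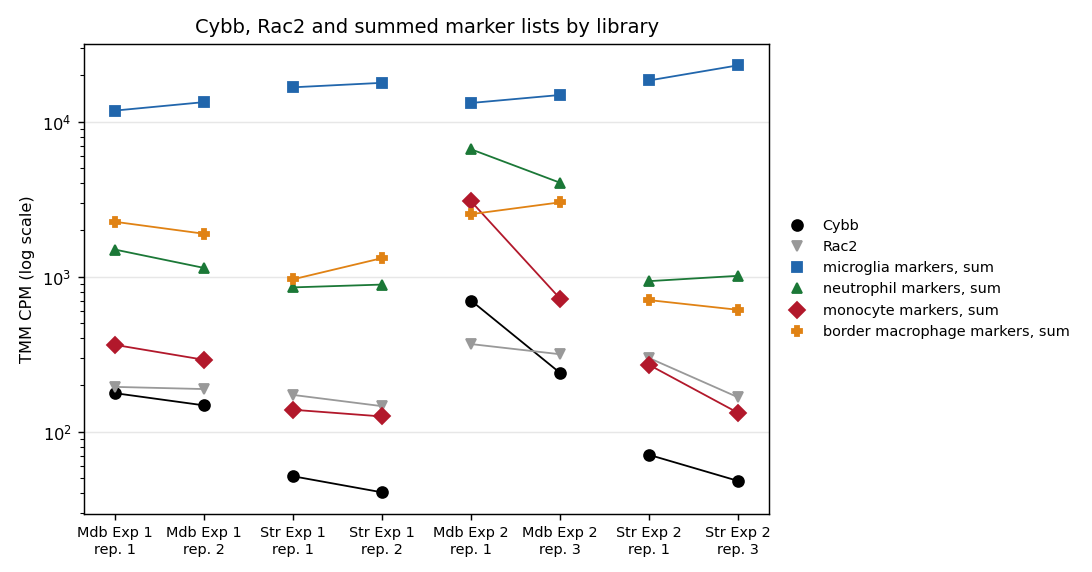
Cybb, Rac2 and the summed levels of marker lists in each of the 8 libraries, in CPM on a log scale; lines join the libraries of a group. Cybb falls from 699 to 239 CPM between the libraries of Mdb Exp 2, the monocyte sum from 3053 to 720.0 CPM, and the border macrophage sum rises from 2529 to 3014 CPM.

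The genes with profiles most like that of Cybb were found as those with the smallest root mean square difference in log2 CPM over the 8 libraries, after centring each gene within each experiment. They were Ccr2 (0.175), Fxyd5 (0.208), Ifitm6 (0.218), Clec4n (0.221) and Ifitm2 (0.222). Ccr2, the chemokine receptor of inflammatory monocytes, is itself one of the monocyte markers above. In Exp 1 its level was 47.1 and 43.4 CPM in the midbrain, against 12.7 and 14.8 CPM in the striatum, and in Exp 2 it was 182 and 58.7 against 14.5 and 10.3 CPM. Since this distance includes the difference between the regions, which chose the genes, the nearest genes and the places of the partners restate that difference. Both are given as a description. Among 14052 genes ordered by this distance to Cybb, Rac2 was number 2062 (1.01), Ncf4 2999 (1.08), Cyba 5288 (1.20), Ncf1 6343 (1.24) and Hvcn1 11962 (1.49).

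The choice of the genes did not use the contrast between the experiments, which was therefore tested in the joint fit with the region as a covariate. The 4 libraries of Exp 1 came from 2 mice, and the fit takes them as separate. Of all genes, 10.5% had an adjusted p under 0.05 for Exp 2 against Exp 1, 4.71% higher and 5.82% lower in Exp 2. Of the 6 genes, 2 were higher in Exp 2 and 1 lower. Rac2 averaged 175 ± 21.6 CPM in Exp 1 and 287 ± 85.3 CPM in Exp 2 (SD, n = 4), a log2 fold change of 0.73 ± 0.17 (SE, adjusted p = 0.0226, voom and limma). Ncf4 averaged 129 ± 11.9 and 179 ± 34.3 CPM, a log2 fold change of 0.49 ± 0.13 (adjusted p = 0.0401). Ncf1 averaged 620 ± 83.3 and 406 ± 36.4 CPM, a log2 fold change of -0.60 ± 0.14 (adjusted p = 0.0234).

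The cytosolic partners Ncf1 and Ncf4 thus moved in opposite directions between the experiments. For both, the 4 libraries of one experiment lay apart from the 4 of the other, as did 6.55% of all genes in the direction of Ncf4 and 10.9% in that of Ncf1. Rac2 was apart in the midbrain, where 25.9% of all genes had Exp 2 wholly above Exp 1 (2 against 2 libraries), and overlapped in the striatum. Cybb had a log2 fold change of 1.05 ± 0.32 that missed the threshold (adjusted p = 0.0581), with every midbrain library of Exp 2 above those of Exp 1, as in the same 25.9% of genes, and overlapping striatum libraries. Cyba (-0.15 ± 0.15, adjusted p = 0.539) and Hvcn1 (-0.15 ± 0.13, adjusted p = 0.458) missed it too.

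These calls rested on few libraries. Leaving out Mdb Exp 1 replicate 1 ended the calls of Rac2, Ncf1 and Ncf4 (adjusted p = 0.0997, 0.0839 and 0.142, voom and limma), as did leaving out Mdb Exp 1 replicate 2 (0.0789, 0.066 and 0.124) and Str Exp 2 replicate 1 (0.0542, 0.0814 and 0.076). Ncf1 also missed the threshold without Mdb Exp 2 replicate 3 (adjusted p = 0.0551) and without Str Exp 2 replicate 3 (0.0753). Ncf4 also missed it without Str Exp 1 replicate 1 (adjusted p = 0.0728), Mdb Exp 2 replicate 1 (0.0705) or Str Exp 2 replicate 3 (0.0532). The log2 fold changes were 0.66 to 0.89 for Rac2, -0.64 to -0.49 for Ncf1 and 0.44 to 0.58 for Ncf4 over the 8 libraries left out, and without Mdb Exp 1 replicate 1 the number of genes called fell from 1480 to 134. Cybb passed without Mdb Exp 2 replicate 3 (1.41, adjusted p = 0.0278), and fell to 0.58 without Mdb Exp 2 replicate 1. Neutrophil sums were 852 to 1492 CPM in Exp 1 and 934 to 6625 CPM in Exp 2, and monocyte sums 125 to 362 and 132 to 3053 CPM. Endothelial sums, 216 to 277 CPM in Exp 1 and 43.5 to 96.4 CPM in Exp 2, and neuron sums, 16.2 to 32.9 and 8.33 to 15.6 CPM, did not overlap. The part of these lists in the differences was not tested. Whatever else differed between the experiments cannot be told apart from the cohort.

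Among 69 other genes of the oxidase pathway that were tested, 3 had an adjusted p under 0.05 between the regions in the joint fit (voom and limma), beside 1.06% of all genes. The lists of these genes were chosen with earlier results of these data known, so their counts and p values are no independent test. Of 20 genes for further parts and for assembly, including the exchange factors that load Rac and the kinases that phosphorylate Ncf1, 0 passed, with 10 higher in the midbrain and a median log2 fold change of 0.03. At an unadjusted p under 0.05 there were 2, Vav3 and Arhgdib. DESeq2 called 1, Vav3, and edgeR 0. The largest value was that of Vav3, an exchange factor for Rac (2.32 ± 0.63, adjusted p = 0.111), at no more than 15.4 CPM. Vav3 had 3 and 0 reads in the striatum libraries of Exp 2, so its value rests on few reads there. It was followed by Prkca, a protein kinase C (-0.39 ± 0.22, adjusted p = 0.438). Of 9 genes for other NADPH oxidases, dual oxidases and their own partners, only Duoxa1, a maturation factor of dual oxidase, was abundant enough to be tested (-0.99 ± 0.45, adjusted p = 0.338; unadjusted p under 0.05 in 1 of 1, and 0 calls by edgeR and DESeq2). Nox3, Duox2, Duoxa2 and Noxa1 had no count in any of the 8 libraries.

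Of 19 genes for the removal of superoxide and peroxide, 18 were tested and 2 passed, both higher in the midbrain, with a median of 0.20. The count was 7 at an unadjusted p under 0.05, 2 with edgeR and 4 with DESeq2 (Gpx1, Gpx3, Prdx1 and Txn1). Gpx1, the main cytosolic glutathione peroxidase, had in Exp 1 892 and 801 CPM in the midbrain against 549 and 572 CPM in the striatum, and 1936 and 1398 against 897 and 795 CPM in Exp 2. The regions did not overlap within either experiment, and the log2 fold change was 0.77 ± 0.14 (adjusted p = 0.0321). Gpx3, a secreted glutathione peroxidase, had 81.5 and 49.7 against 19.7 and 19.7 CPM in Exp 1, and 32.3 and 52.7 against 13.1 and 6.86 CPM in Exp 2. Its log2 fold change was 1.73 ± 0.27 (adjusted p = 0.0181). Prdx1, a peroxiredoxin, had 1.93 ± 0.55 (adjusted p = 0.124) at 1.75 to 44.4 CPM.

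Of 14 receptors and signalling genes that trigger the burst, 1 passed. Clec7a, the receptor for fungal beta-glucan, had 28.1 and 30.6 against 14.6 and 12.2 CPM in Exp 1, and 47.3 and 65.0 against 14.9 and 10.3 CPM in Exp 2, a log2 fold change of 1.45 ± 0.24 (adjusted p = 0.0226). The median of the 14 was 0.01. The count was 6 at an unadjusted p under 0.05, 1 with edgeR and 2 with DESeq2 (Clec7a and Fpr2). The formyl peptide receptors had the largest values without passing in voom and limma. Fpr1 had 3.92 and 4.50 against 1.51 and 0 CPM in Exp 1, and 42.3 and 9.71 against 0 and 0 CPM in Exp 2 (adjusted p = 0.0531). Its striatum libraries of Exp 2 held no read, so no fold is given. Fpr2 had a log2 fold change of 1.92 ± 0.46 (adjusted p = 0.0782).

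The 3 calls of Gpx1, Gpx3 and Clec7a did not hold without Mdb Exp 1 replicate 1 (adjusted p = 0.13, 0.0844 and 0.0835), Str Exp 1 replicate 1 (0.0711, 0.0592 and 0.055), Str Exp 2 replicate 1 (0.161, 0.119 and 0.15) or Str Exp 2 replicate 3 (0.152, 0.0656 and 0.0863). The log2 fold changes were 0.61 to 0.84 for Gpx1, 1.504 to 1.990 for Gpx3 and 1.27 to 1.596 for Clec7a over the 8 libraries left out, and the number of all genes called, 149 with every library, was 0 to 9 in the 4 fits just named. Without Mdb Exp 1 replicate 2, Gpx1 (adjusted p = 0.0548) and Clec7a (0.0519) missed the threshold. The median of all genes was 0.04. The lists of myeloid markers above moved with the region in the same direction, and their part in these genes was not tested.

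Regulators known to act on the Cybb promoter were measured too. Of 10 such genes, 0 passed, with a median log2 fold change of 0.23. The count was 4 at an unadjusted p under 0.05, 0 with edgeR and 2 with DESeq2 (Cebpb and Cebpe). Spi1, which encodes PU.1, had 368 and 354 against 324 and 263 CPM in Exp 1, and 329 and 223 against 244 and 189 CPM in Exp 2 (0.30 ± 0.16, adjusted p = 0.417). Irf8, an interferon regulatory factor of macrophages, had -0.21 ± 0.13 (adjusted p = 0.473). The largest values were those of the C/EBP factors Cebpe (2.24 ± 0.52, adjusted p = 0.0692) at no more than 6.71 CPM and Cebpb (0.70 ± 0.18, adjusted p = 0.0931). Of 7 ion channels and exchangers of phagocytes, 6 were tested and 0 passed, with a median of -0.12. The count was 1 at an unadjusted p under 0.05 (Kcnn4) and 0 with edgeR and DESeq2. The potassium channel Kcnn4 had 1.10 ± 0.38 (adjusted p = 0.208) and the chloride exchanger Clcn3 -0.39 ± 0.25 (adjusted p = 0.508).

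**Figure D4:**
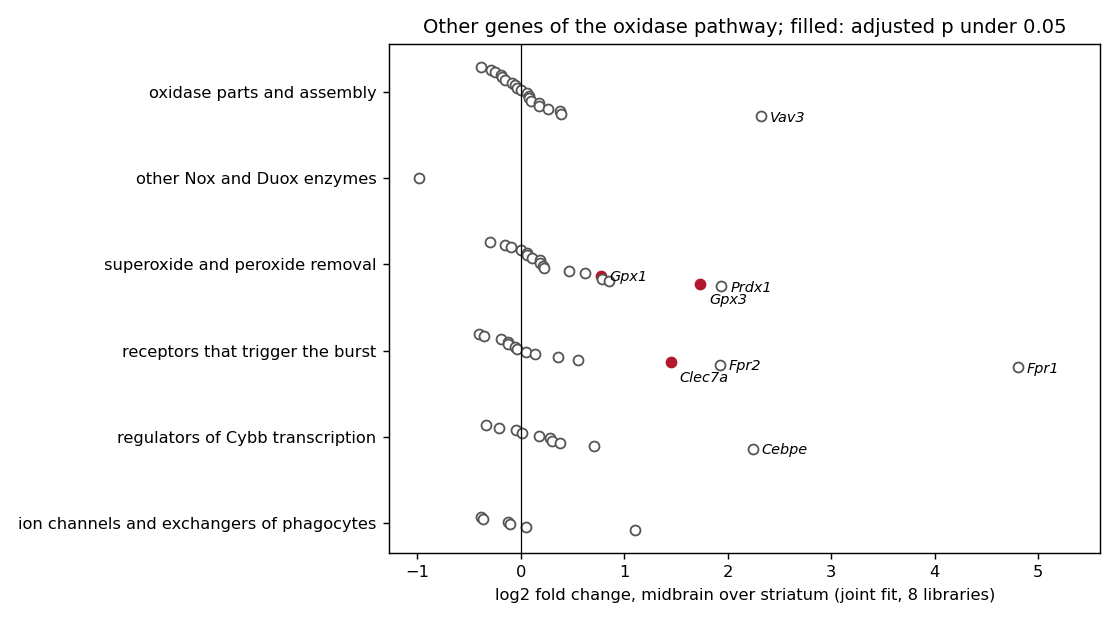
Log2 fold change of midbrain over striatum in the joint fit (horizontal axis) for the tested genes of 6 lists of the oxidase pathway, each point a gene and filled where the adjusted p is under 0.05. The 3 filled points are Gpx1 (0.77), Gpx3 (1.73) and Clec7a (1.45); Fpr1 has the largest fitted value, which depends on the prior count because its striatum libraries of Exp 2 are at 0.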

How the data were processed

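The authors checked reads with FastQC, aligned them to GRCm38 with STAR 2.5.3a, counted them over Gencode M17 exons with featureCounts 1.6.0 without strand, and deposited raw counts per gene and library. The sources used here name no use of molecular identifiers, so these were treated as read counts. Symbols were found for 53620 of 53715 identifiers.

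Following the study's methods, a gene was left out when over 50% of the libraries fitted had under 6 counts, counts were scaled with TMM factors (edgeR 4.0.16), and fitted with voom and limma 3.58.1 in R 4.3.3. Within an experiment the threshold was an unadjusted two-sided p of 0.01 (14972 genes tested in Exp 1, 13486 in Exp 2). The joint fit (8 libraries, 14053 genes, region plus experiment) used 0.05 on p adjusted after Benjamini and Hochberg. Single libraries are given as TMM CPM, and log2 CPM used a prior count of 2. The procedure was tested on simulated data.

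Members, lists and motifs were chosen with earlier results of these data known. Named are the members, Rac1, Cybc1 and Rap1a, and in each list the genes past the threshold and otherwise the 2 with the largest change; Spi1, Irf8 and the genes of the promoters were added after their values were seen, as were genes named for small counts. An item of a list is not reported here. Replicate numbers were not used to pair libraries. Alternatives were other tests (DESeq2 1.42.0, edgeR's quasi-likelihood test), scaling, filters, a prior count of 0.5, a replicate block, both placements of the conflicting libraries, and leaving out each library.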

Additional observations from a re-analysis of the deposited data

Results flagged for a closer look

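The 2 libraries of Exp 2 whose title and file name name different regions were used in no comparison, and the 6 genes were well above the level of 3 counts in both. With TMM factors of all 10 libraries, the library titled midbrain 2, whose file name gives the striatum, had 60.4 CPM of Cybb, 541 of Cyba, 426 of Ncf1, 113 of Ncf4, 210.3 of Rac2 and 362 of Hvcn1. The library titled striatum 2, whose file name gives the midbrain, had 244 CPM of Cybb, 755 of Cyba, 299 of Ncf1, 132 of Ncf4, 297 of Rac2 and 258 of Hvcn1. On the same scale the placed libraries of Exp 2 had 239 to 700.3 CPM of Cybb in the midbrain and 47.9 to 70.7 CPM in the striatum. The region of these libraries was not settled from these values.

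For 3 of 75 tested genes of the oxidase and its lists, the order of the regions was opposite in the experiments, with no overlap in either, as it was for 4.08% of all genes. The ratio of mean CPM, midbrain over striatum, was 0.823 in Exp 1 and 1.36 in Exp 2 for Rac1. It was 0.809 and 1.41 for Syk, the kinase behind Fc receptors and Clec7a. It was 0.871 and 1.12 for Elf1, a factor that binds the Cybb promoter. In a joint fit with an interaction of region and experiment (voom and limma), the difference had an unadjusted p of 0.0316 for Rac1, 0.0157 for Syk and 0.222 for Elf1, and an adjusted p of 0.86, 0.86 and 0.865. This difference reached an adjusted p of 0.05 for 0 genes of the fit, and 771 had an unadjusted p under 0.05.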

How the results depend on the processing

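Cybb remained higher in the midbrain under every alternative run, with log2 fold changes of 1.64 to 1.93 (Exp 1), 0.96 to 3.50 (Exp 2) and 1.32 to 2.40 (joint). The lowest came from adding the 2 conflicting libraries by title, which gave 0.96 in Exp 2 and a distance between Cybb and its partners of 1.11 in place of 2.66; by file name they gave 2.46 and 2.43. That distance was 1.58 to 2.04 in Exp 1 and 1.97 to 3.34 in Exp 2 when each library was left out. The joint log2 fold changes of Cyba and Ncf1 took either sign.

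The number of genes past the threshold depended on the settings, and the cause was not tested. In Exp 1 it was 395, and 822 without a filter and 108 to 2445 without single libraries. In Exp 2 it was 468, and 204 with at least 10 counts in every library, 132 with both libraries by title and 393 to 1240 without single libraries. In the joint fit it was 149, and 237 with edgeR, 544 with DESeq2, 277 without a filter, 57 with 10 counts in every library, 0 by title, 440 by file name and 0 to 238 without single libraries. Where it was 0, unadjusted p under 0.05 held for 871 genes (by title), 1375 (without Mdb Exp 1 replicate 1) and 1942 (without Str Exp 2 replicate 1). Between the experiments it was 1480, and 2375 by file name and 134 to 2021 without single libraries. Leaving out a library left an arm with 1 sample in the fit of a single experiment, which was assumed to vary like the other.

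The replicate number as a block gave 401 genes for Exp 1, 988 for Exp 2 and 308 jointly. Deviations of same-numbered libraries correlated at -0.03 in Exp 1 and 0.08 in Exp 2. With 2 libraries per region these correlations do not settle which libraries share a mouse, and the numbers are not read as pairs. Between the experiments, Ncf4 missed the adjusted p of 0.05 with edgeR (0.0553), without TMM (0.0701), without a filter (0.0711), by title (0.256) and by file name (0.198). Cybb passed it with DESeq2 (0.031), without a filter (0.0225), with the block (0.0478) and by file name (0.0499). By title, Gpx1, Gpx3 and Clec7a missed it (adjusted p = 0.772, 0.848 and 0.772). Str Exp 2 rests on 2 libraries, of which the shallower holds 575709 counts, so its values are the least precise for low genes.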
